A study of Homo sapiens with 12 samples.

Results

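The 9 genes described are markers of primordial germ cells and of seminoma, namely PRDM1, TFAP2C, KIT, CXCR4, CD38, PDPN, DND1, ALPL and PRAME. They were chosen by gene name from the gene-level count table, which held 63241 genes, and 9 of 9 were among the 15614 genes with enough counts to be tested. The 4 groups were TCam-2 with I-BRD9, TCam-2 with DMSO, 2102 EP with I-BRD9 and 2102 EP with DMSO, and each comprised 3 libraries of total RNA. TCam-2 is a seminoma line kept in RPMI, and 2102 EP is an embryonal carcinoma line kept in DMEM, so the medium cannot be told apart from the line. Cells of both lines, labelled wild type, received 15 µM I-BRD9, a bromodomain inhibitor directed at the chromatin remodelling subunit BRD9, or the solvent DMSO, and were labelled 24 h. Each tumour type is represented by 1 line. The labels number the replicates as biological without saying that cultures were separate, so p-values measure the spread between these libraries, which may be technical.

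Primordial germ cells are the embryonic precursors of sperm and eggs. In humans they are specified by SOX17, TFAP2C and PRDM1, which repress somatic genes while a pluripotency network stays active, and they then follow KIT and CXCR4 ligands to the gonad. Seminoma cells keep much of this program, whereas embryonal carcinoma cells resemble an earlier pluripotent state.

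The promoters of 4 genes are shown because PRDM1, CXCR4 and CD38 had the largest changes with I-BRD9 in TCam-2 and KIT was the gene of the set that rose there. Each is the RefSeq window (GRCh38.p14) of 250 bases before to 50 bases after an annotated start, written 5′ to 3′ on the gene's strand. Capitals mark GCCNNNGGC, letters bound by TFAP2 factors, which read the same on both strands.
PRDM1: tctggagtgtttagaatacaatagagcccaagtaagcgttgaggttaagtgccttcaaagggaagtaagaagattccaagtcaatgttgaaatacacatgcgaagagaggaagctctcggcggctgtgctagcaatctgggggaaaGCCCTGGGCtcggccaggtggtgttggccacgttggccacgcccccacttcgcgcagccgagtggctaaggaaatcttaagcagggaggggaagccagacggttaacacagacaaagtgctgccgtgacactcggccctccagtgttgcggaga
KIT: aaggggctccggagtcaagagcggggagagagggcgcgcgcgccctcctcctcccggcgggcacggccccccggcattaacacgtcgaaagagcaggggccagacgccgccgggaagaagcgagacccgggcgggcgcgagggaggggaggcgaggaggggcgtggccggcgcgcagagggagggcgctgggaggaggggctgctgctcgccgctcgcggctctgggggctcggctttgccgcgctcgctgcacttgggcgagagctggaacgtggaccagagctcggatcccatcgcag
CXCR4: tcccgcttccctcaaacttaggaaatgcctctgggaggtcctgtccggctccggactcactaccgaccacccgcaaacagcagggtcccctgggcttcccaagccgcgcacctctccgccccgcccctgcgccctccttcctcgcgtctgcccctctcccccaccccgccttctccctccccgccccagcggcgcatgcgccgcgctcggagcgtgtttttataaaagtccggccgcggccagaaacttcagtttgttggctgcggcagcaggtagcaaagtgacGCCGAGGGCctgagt
CD38: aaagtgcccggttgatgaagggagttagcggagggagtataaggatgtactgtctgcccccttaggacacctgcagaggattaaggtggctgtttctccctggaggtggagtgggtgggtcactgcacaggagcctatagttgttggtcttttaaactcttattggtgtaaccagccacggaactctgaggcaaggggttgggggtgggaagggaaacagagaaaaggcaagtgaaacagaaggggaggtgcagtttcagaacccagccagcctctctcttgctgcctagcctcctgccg
They lie at chr6:106086086-106086385 (plus strand), chr4:54657707-54658006 (plus), chr2:136118100-136118399 (minus) and chr4:15778078-15778377 (plus), in that order. The motif occurred 1 time in the PRDM1 window and 1 time in the CXCR4 window, and these letters were in neither the KIT nor the CD38 window. PRDM1 and CXCR4 have other annotated starts, whose windows are not shown. The other PRDM1 window also held a match. For CXCR4, the window at chr2:136117820-136118119 held the same match and that at chr2:136116186-136116485 held none. A window of ALPL, which also fell, held 2 matches, and its other windows held none. No window of PDPN or PRAME, which fell in TCam-2 too, held a match. Of all 35116 promoter windows of the same length, 23.2% held the motif, so a match is a description of the letters and no more. The KIT window held 38 CpG pairs, with fewer in 90.1% of all windows. CXCR4 held 27, PRDM1 held 14, the median of all windows, and CD38 held 4. A PRDM1 motif, GTGAAAG, was in the DND1 window and in 3.95% of all windows on either strand. A SOX motif, ACAATGG, was in a window of PDPN, in a window of PRAME and in 3.16% of all windows. The motifs were chosen after values had been seen, and no window of TFAP2C was used.

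Levels are given as CPM, the deposited estimated count of a gene per 1000000 counts of its library, with library sizes scaled by TMM. A 3′ kit counts transcript ends, so levels are compared between groups for 1 gene and not between genes. Differences are log2 fold changes ± SE from edgeR's quasi-likelihood test over all 12 libraries, called at an adjusted p (Benjamini-Hochberg over all genes tested) under 0.05. In bulk RNA, fewer cells with a transcript and less transcript per cell cannot be told apart.

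In TCam-2, 7 of the 9 genes were called with I-BRD9, 1 higher and 6 lower, where 31.8% of all genes tested were called (15.3% higher and 16.5% lower). With library size as the only scaling, 59.0% of the genes called in TCam-2 were higher, beside 48.2% with TMM. KIT rose, and PRDM1, CXCR4, CD38, PDPN, ALPL and PRAME fell. In 2102 EP, 4 of the 9 were called, where 36.8% of all genes were (18.2% higher and 18.6% lower). CXCR4 rose there, and PRDM1, DND1 and ALPL fell. The median log2 change of the 9 was -0.51 in TCam-2, beside 0.0069 over all genes tested, and -0.77 in 2102 EP, beside 0.0025. Both medians include values of genes near 0 counts, PRAME and CD38 in 2102 EP and DND1 in TCam-2. They therefore do not show in which line the set fell more. Libraries of the 2 treatments did not overlap for 7 of the 9 genes in TCam-2 and for 5 of the 9 in 2102 EP, beside 45.7% and 46.3% of all genes. CD38, DND1 and PRAME passed the filter on low counts through the groups where they were high, since they reached 10 counts in 4, 5 and 6 of the 12 libraries. The counts over the 9 genes are therefore a description.

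**Figure D1:**
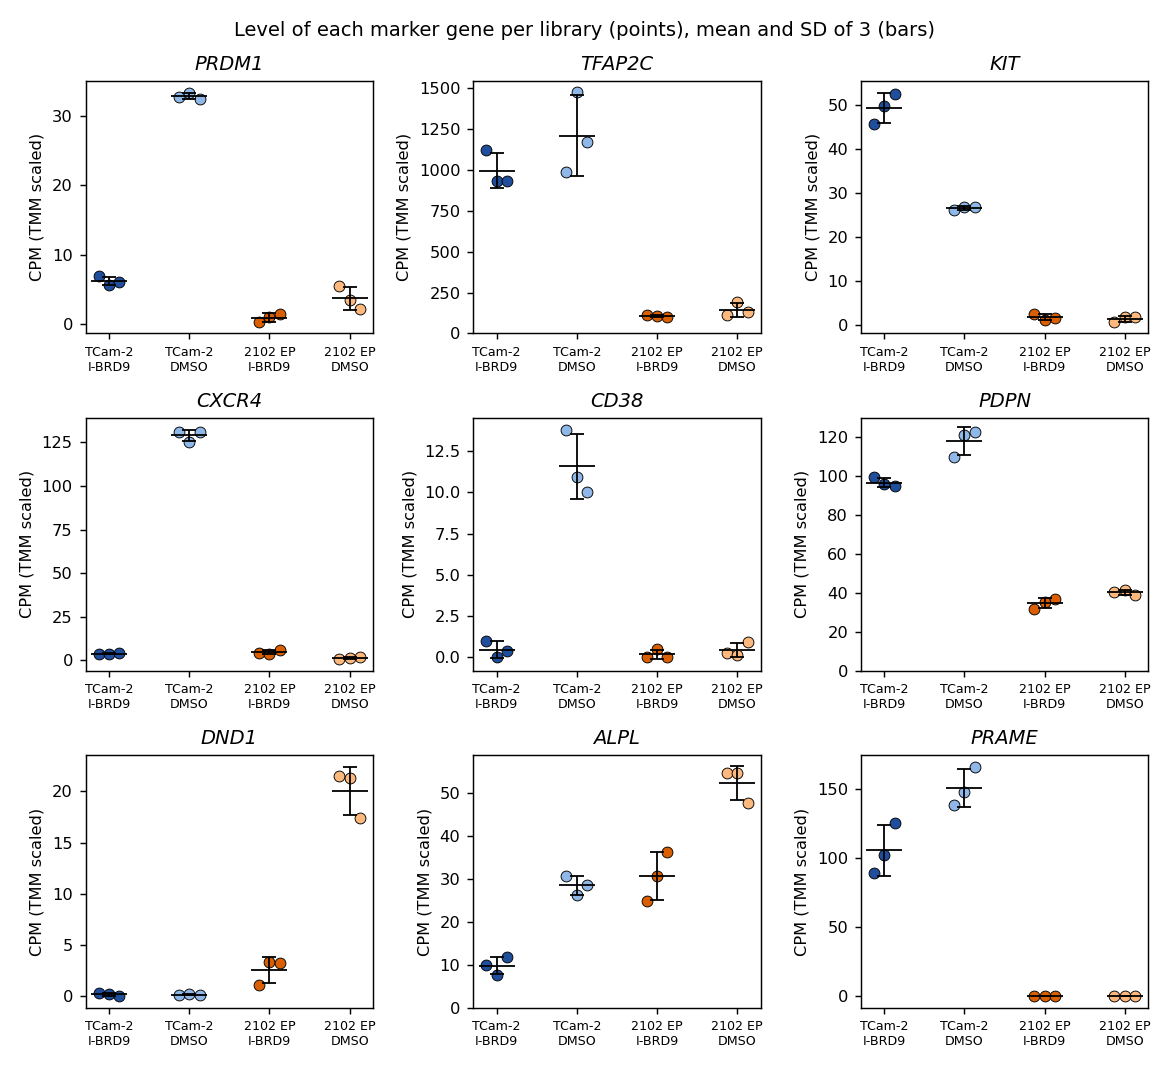
Level of each of the 9 genes in CPM (TMM scaled) on the y axis, by line and treatment on the x axis. Points are libraries, and bars are the mean and SD of 3 libraries. The 3 TCam-2 DMSO libraries of CXCR4 lie at 125.6 CPM or more, and every other library of that gene lies at 5.80 CPM or less.

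PRDM1, known as BLIMP1, is a transcriptional repressor that sets up germ cell fate. It spans chr6:106086320-106109939 on the plus strand of GRCh38. Its level in TCam-2 was 6.92, 5.70 and 6.0 CPM with I-BRD9 and 32.7, 33.3 and 32.4 CPM with DMSO. In 2102 EP the level was 0.304, 1.06 and 1.48 CPM with I-BRD9 and 5.47, 3.49 and 2.11 CPM with DMSO. The I-BRD9 libraries were below the DMSO libraries in both lines, with no overlap between any of the 4 groups. With I-BRD9 PRDM1 fell by 2.40 ± 0.24 on the log2 scale in TCam-2 (adjusted p = 2.16e-07, edgeR), 5.27-fold lower. In 2102 EP PRDM1 fell by 1.91 ± 0.40 (adjusted p = 0.000450, edgeR). This fall rests on 26.1 and 93.9 counts summed over the I-BRD9 and the DMSO libraries. The effect in TCam-2 less that in 2102 EP was -0.49 ± 0.47 (95% interval -1.47 to 0.49, adjusted p = 0.582, edgeR). PRDM1 overlaps ATG5 on the opposite strand, and reads were shared between genes in 10 of the 12 libraries, so its counts are uncertain to that extent.

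TFAP2C, the transcription factor AP-2 gamma, acts with PRDM1 and SOX17 in human primordial germ cells. It lies at chr20:56629302-56639283 on the plus strand. TCam-2 libraries held 1119, 933.3 and 930.9 CPM with I-BRD9 and 982.8, 1472 and 1169 CPM with DMSO. Those of 2102 EP held 115.4, 108.1 and 99.8 CPM with I-BRD9 and 113.4, 193.2 and 129.6 CPM with DMSO. The treatments overlapped in both lines, and the lines did not overlap. The effect of I-BRD9 was -0.28 ± 0.20 in TCam-2 (95% interval -0.74 to 0.17, adjusted p = 0.342, edgeR). The effect in 2102 EP was -0.43 ± 0.21 (95% interval -0.91 to 0.04, adjusted p = 0.143, edgeR), and without DMSO replicate 1 it was -0.58 and was called (adjusted p = 0.0469, edgeR). Without DMSO replicate 2 it was -0.18 (adjusted p = 0.412, edgeR).

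Of 15 tested partners of PRDM1 and TFAP2C, 3 were higher and 3 lower with I-BRD9 in TCam-2, with a median of -0.10. In 2102 EP 2 were higher and 7 lower, with a median of -0.40. The medians of this and the following gene lists stand beside 0.0069 in TCam-2 and 0.0025 in 2102 EP over all genes tested, and the shares called over all genes are those given above. CITED4, of the CITED family of AP-2 coactivators, averaged 22.1 ± 0.953 CPM with I-BRD9 and 10.0 ± 1.02 CPM with DMSO in TCam-2 (SD, n = 3 each). It averaged 20.7 ± 3.30 CPM with I-BRD9 and 7.88 ± 0.970 CPM with DMSO in 2102 EP, and was called higher in both lines. CITED2 and TLE3 were the other partners that rose in TCam-2, and TLE3 also rose in 2102 EP. PRMT5 and WDR77 form the arginine methyltransferase complex that joins PRDM1 in mouse germ cells. They fell by 0.52 ± 0.08 and 0.56 ± 0.10 in TCam-2, and by 0.22 ± 0.08 and 0.47 ± 0.09 in 2102 EP. HDAC1 fell in both lines too, by 0.24 ± 0.08 in TCam-2 and by 0.45 ± 0.08 in 2102 EP.

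KIT is the receptor tyrosine kinase for stem cell factor and supports survival and migration of germ cells. It lies at chr4:54657918-54740715 on the plus strand. Its level in TCam-2 was 45.7, 49.9 and 52.5 CPM with I-BRD9 and 26.1, 26.7 and 26.7 CPM with DMSO. The level in 2102 EP was 2.45, 1.10 and 1.56 CPM with I-BRD9 and 0.572, 1.65 and 1.66 CPM with DMSO. All TCam-2 libraries with I-BRD9 were above all with DMSO, and the treatments overlapped in 2102 EP. KIT was 1.86-fold higher with I-BRD9 in TCam-2, a log2 change of 0.90 ± 0.16 (adjusted p = 0.000143, edgeR). In 2102 EP the change was 0.36 ± 0.34 (95% interval -0.35 to 1.08, adjusted p = 0.440, edgeR). The difference between the lines was 0.53 ± 0.38 (95% interval -0.25 to 1.32, adjusted p = 0.415, edgeR), so the rise was not shown to be particular to TCam-2.

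Of 22 tested genes of KIT signalling, 4 were higher and 6 lower with I-BRD9 in TCam-2 (median 0.01), and 2 were higher and 4 lower in 2102 EP (median 0.07). PIK3R1, the regulatory subunit of the kinase PI3K, averaged 30.3 ± 3.49 CPM with I-BRD9 and 16.7 ± 1.78 CPM with DMSO in TCam-2. It averaged 30.7 ± 4.0 CPM with I-BRD9 and 16.9 ± 3.27 CPM with DMSO in 2102 EP, a log2 change of 0.86 ± 0.15 in each line. FYN, STAT3 and PTPN6 were the other genes that rose in TCam-2, and RASA1 the other in 2102 EP. SPRY2, an inhibitor of receptor tyrosine kinase signalling, averaged 3.86 ± 1.07 CPM with I-BRD9 and 10.6 ± 2.31 CPM with DMSO in TCam-2. It averaged 7.71 ± 0.719 CPM with I-BRD9 and 17.4 ± 4.63 CPM with DMSO in 2102 EP. SPRY2, SPRED1, SH2B3 and the ERK phosphatase DUSP6 fell in both lines, and LYN and CBL fell in TCam-2.

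CXCR4 is the receptor for the chemokine CXCL12, which guides migrating germ cells. It lies at chr2:136114349-136118165 on the minus strand. The TCam-2 libraries stood at 3.56, 3.84 and 4.29 CPM with I-BRD9 and 130.8, 125.6 and 131.3 CPM with DMSO. The 2102 EP libraries stood at 4.09, 3.61 and 5.80 CPM with I-BRD9 and 0.686, 1.30 and 1.79 CPM with DMSO. Libraries of the 2 treatments did not overlap in either line, and I-BRD9 stood below DMSO in TCam-2 and above it in 2102 EP. CXCR4 was 33.1-fold lower with I-BRD9 in TCam-2 (log2 change -5.05 ± 0.17, adjusted p = 2.42e-16, edgeR), the rank 3 gene by p of the 15614 tested. It was 3.60-fold higher in 2102 EP (log2 change 1.85 ± 0.29, adjusted p = 8.46e-06, edgeR). That rise rests on 118 and 31 counts summed over the I-BRD9 and the DMSO libraries. The effects differed between the lines by -6.90 ± 0.33 (adjusted p = 2.09e-13, edgeR), rank 5 by p of all genes tested for that difference. With I-BRD9 the lines overlapped, at 3.90 ± 0.369 CPM in TCam-2 and 4.50 ± 1.15 CPM in 2102 EP (SD, n = 3 each).

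Of 21 tested genes of CXCR4 signalling, 3 were higher and 6 lower with I-BRD9 in TCam-2 (median -0.04), and 2 were higher and 7 lower in 2102 EP (median -0.03). Its ligand CXCL12 fell by 0.96 ± 0.19 in TCam-2 and by 0.98 ± 0.15 in 2102 EP. It averaged 3.60 ± 0.356 CPM with I-BRD9 and 7.06 ± 0.434 CPM with DMSO in TCam-2, and 17.4 ± 2.88 CPM with I-BRD9 and 34.1 ± 2.12 CPM with DMSO in 2102 EP. RGS16, which shortens signals of inhibitory G proteins, averaged 9.27 ± 1.56 CPM with I-BRD9 and 29.2 ± 2.84 CPM with DMSO in TCam-2, where it fell. GNAI2, an inhibitory G protein subunit, averaged 128.0 ± 4.65 CPM with I-BRD9 and 64.3 ± 5.67 CPM with DMSO in TCam-2, where it rose. GNAI1 and GRK3 were the other genes that rose in TCam-2, and CD74 and GNAI2 rose in 2102 EP. ARRB2, a beta-arrestin that ends receptor signalling, fell by 0.80 ± 0.11 in 2102 EP.

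CD38 is a surface enzyme that breaks down NAD and marks human germ cell precursors grown in culture. It lies at chr4:15778275-15853230 on the plus strand. CD38 stood in TCam-2 at 1.0, 0 and 0.348 CPM with I-BRD9 and 13.8, 10.9 and 10.04 CPM with DMSO. It stood in 2102 EP at 0, 0.501 and 0 CPM with I-BRD9 and 0.229, 0.118 and 0.895 CPM with DMSO. The TCam-2 DMSO libraries stood above the other 9 libraries, which overlapped and held between 0 and 10.2 counts each. CD38 was 23.9-fold lower with I-BRD9 in TCam-2 (log2 change -4.58 ± 0.77, adjusted p = 0.000136, edgeR). Without I-BRD9 replicate 1, the highest of its group, the change was -5.93, and with other libraries left out it reached -4.05. In 2102 EP the change was -1.04 ± 1.27 (95% interval -3.79 to 1.70, adjusted p = 0.531, edgeR), which rests on 5 and 10 counts summed over the I-BRD9 and the DMSO libraries. At this depth a change of CD38 in 2102 EP was not detectable, and 3 counts equal 0.297 to 0.409 CPM in these libraries.

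Of 14 tested genes of NAD metabolism, 4 were higher and 1 lower with I-BRD9 in TCam-2, with a median of 0.22. In 2102 EP 3 were higher and 2 lower, with a median of -0.03. NMNAT1, NMNAT2, QPRT and NMRK1, enzymes of NAD synthesis, rose in TCam-2, and NMRK1, NADSYN1 and the NAD hydrolase SARM1 rose in 2102 EP. ENPP1, a surface enzyme that also cleaves NAD, averaged 16.6 ± 0.580 CPM with I-BRD9 and 44.9 ± 1.38 CPM with DMSO in TCam-2. It fell by 1.44 ± 0.11 there and by 0.34 ± 0.11 in 2102 EP, where SIRT1 also fell.

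ALPL encodes the tissue-nonspecific alkaline phosphatase, whose activity stains primordial germ cells. It lies at chr1:21509372-21578412 on the plus strand. The level of ALPL in TCam-2 was 9.99, 7.69 and 11.7 CPM with I-BRD9 and 30.6, 26.3 and 28.5 CPM with DMSO. That in 2102 EP was 24.95, 30.7 and 36.1 CPM with I-BRD9 and 54.7, 54.6 and 47.7 CPM with DMSO. I-BRD9 libraries were below DMSO libraries in both lines without overlap. ALPL was 2.90-fold lower with I-BRD9 in TCam-2 (log2 change -1.53 ± 0.16, adjusted p = 6.85e-08, edgeR). It was 1.71-fold lower in 2102 EP (log2 change -0.77 ± 0.14, adjusted p = 0.000109, edgeR). The fall was larger in TCam-2 by 0.76 on the log2 scale (difference -0.76 ± 0.21, adjusted p = 0.0146, edgeR), a call lost without TCam-2 I-BRD9 replicate 2 (-0.63, adjusted p = 0.0563).

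Of the 7 tested genes of the alkaline phosphatase family and phosphate handling, 1 was higher and 2 lower with I-BRD9 in TCam-2, and 1 was higher and 4 lower in 2102 EP. The medians were -0.20 in TCam-2 and -0.31 in 2102 EP. ALPG, a germ cell alkaline phosphatase with near-identical relatives, averaged 4.01 ± 0.660 CPM with I-BRD9 and 1.09 ± 0.406 CPM with DMSO in TCam-2. It averaged 9.77 ± 0.303 CPM with I-BRD9 and 17.5 ± 0.617 CPM with DMSO in 2102 EP. It was called higher in TCam-2 and lower in 2102 EP, and the split of reads among its relatives makes it uncertain. ENPP1 fell in both lines. SLC20A1, a phosphate transporter, fell by 0.31 ± 0.09 and PDXK, a vitamin B6 kinase, rose by 0.44 ± 0.08 in 2102 EP.

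PDPN, podoplanin, is a surface glycoprotein whose D2-40 epitope is used to recognise seminoma. It lies at chr1:13583465-13617957 on the plus strand. PDPN had 99.3, 95.9 and 94.6 CPM with I-BRD9 and 109.9, 121.2 and 122.8 CPM with DMSO in TCam-2. It had 31.8, 35.2 and 36.7 CPM with I-BRD9 and 40.2, 41.5 and 38.7 CPM with DMSO in 2102 EP. The groups did not overlap in either line, though the gap between treatments was small. PDPN fell by 0.29 ± 0.08 with I-BRD9 in TCam-2 (adjusted p = 0.0106, edgeR). The call was lost with library size as the only scaling (-0.21, adjusted p = 0.0549) and without TCam-2 DMSO replicate 3 (-0.26, adjusted p = 0.0506). In 2102 EP the change was -0.21 ± 0.09 (95% interval -0.41 to -0.02, adjusted p = 0.0747, edgeR). The difference between the lines was -0.07 ± 0.12 (95% interval -0.33 to 0.18, adjusted p = 0.764, edgeR).

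Of 8 tested partners of PDPN, RDX and CD44 rose and MSN fell with I-BRD9 in TCam-2. RDX and MSN encode radixin and moesin, which tie PDPN to the actin skeleton. MSN averaged 75.1 ± 3.22 CPM with I-BRD9 and 106.4 ± 2.75 CPM with DMSO in TCam-2, and 156.7 ± 11.3 CPM with I-BRD9 and 237.8 ± 12.0 CPM with DMSO in 2102 EP. In 2102 EP RDX and LGALS8 rose, and EZR, MSN and CD9 fell. The medians of the partners were 0.09 in TCam-2 and -0.17 in 2102 EP.

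DND1 is an RNA-binding protein without which mouse primordial germ cells die. It lies at chr5:140670794-140673586 on the minus strand. In TCam-2 it measured 0.297, 0.240 and 0 CPM with I-BRD9 and 0.118, 0.212 and 0.122 CPM with DMSO. In 2102 EP it measured 1.09, 3.31 and 3.24 CPM with I-BRD9 and 21.5, 21.3 and 17.4 CPM with DMSO. In 2102 EP all I-BRD9 libraries were below all DMSO libraries, and in TCam-2 the groups held 5 and 4 counts in all with I-BRD9 and with DMSO. DND1 was 7.67-fold lower with I-BRD9 in 2102 EP (log2 change -2.94 ± 0.30, adjusted p = 7.55e-08, edgeR). In TCam-2 a change was not detectable at this depth (0.24 ± 1.00, adjusted p = 0.878, edgeR). The difference between the lines was 3.18 ± 1.04 (95% interval 1.02 to 5.35, adjusted p = 0.0514, edgeR). It was called when TCam-2 I-BRD9 replicate 3 (adjusted p = 0.0193) or any 1 of the 2102 EP I-BRD9 libraries (0.0425 to 0.0440) was left out, with DESeq2 (0.0219) and with no filter on low counts (0.0328). Without TCam-2 I-BRD9 replicate 1 it was 2.59 and not called (adjusted p = 0.324, edgeR). DND1 lies within the span of WDR55 on the opposite strand, and the use of strand in counting is not given in the sources used here.

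Of 17 tested partners of DND1 and deadenylation genes, 1 was higher and 2 lower with I-BRD9 in TCam-2 (median -0.06), and 1 was higher and 4 lower in 2102 EP (median -0.16). NANOS1, a germ cell RNA-binding repressor, averaged 15.1 ± 4.21 CPM with I-BRD9 and 3.92 ± 0.132 CPM with DMSO in TCam-2, a rise of 1.95 ± 0.20. It averaged 29.6 ± 1.17 CPM with I-BRD9 and 5.70 ± 0.510 CPM with DMSO in 2102 EP, a rise of 2.37 ± 0.19. CNOT1 and CNOT9, subunits of the deadenylase complex that DND1 recruits, fell in both lines, by 0.25 ± 0.08 and 0.54 ± 0.09 in TCam-2. CNOT10 and CDKN1B were the other genes that fell in 2102 EP.

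PRAME is a tumour antigen of the germ line that represses retinoic acid receptor signalling. It lies at chr22:22547701-22559361 on the minus strand. In TCam-2 it measured 89.1, 102.7 and 125.7 CPM with I-BRD9 and 138.7, 148.1 and 166.4 CPM with DMSO. PRAME in 2102 EP was at 0 CPM in all 3 I-BRD9 libraries and at 0, 0.236 and 0 CPM in the DMSO libraries. Libraries with I-BRD9 were below those with DMSO in TCam-2 without overlap, and 2102 EP held 2 counts in all. PRAME fell by 0.51 ± 0.13 in TCam-2 (adjusted p = 0.00561, edgeR). No fold is given for 2102 EP, where both groups were at or under 3 counts. Of 12 tested genes of retinoic acid signalling and PRAME partners, none rose and EZH2, CRABP1, STRA6 and DHRS3 fell in TCam-2 (median -0.21). In 2102 EP CRABP1 rose and ELOC and EZH2 fell (median -0.0016). CRABP1, which binds retinoic acid in the cytosol, averaged 0.816 ± 0.134 CPM with I-BRD9 and 4.51 ± 0.944 CPM with DMSO in TCam-2. It averaged 12.3 ± 1.71 CPM with I-BRD9 and 4.69 ± 0.625 CPM with DMSO in 2102 EP.

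**Figure D2:**
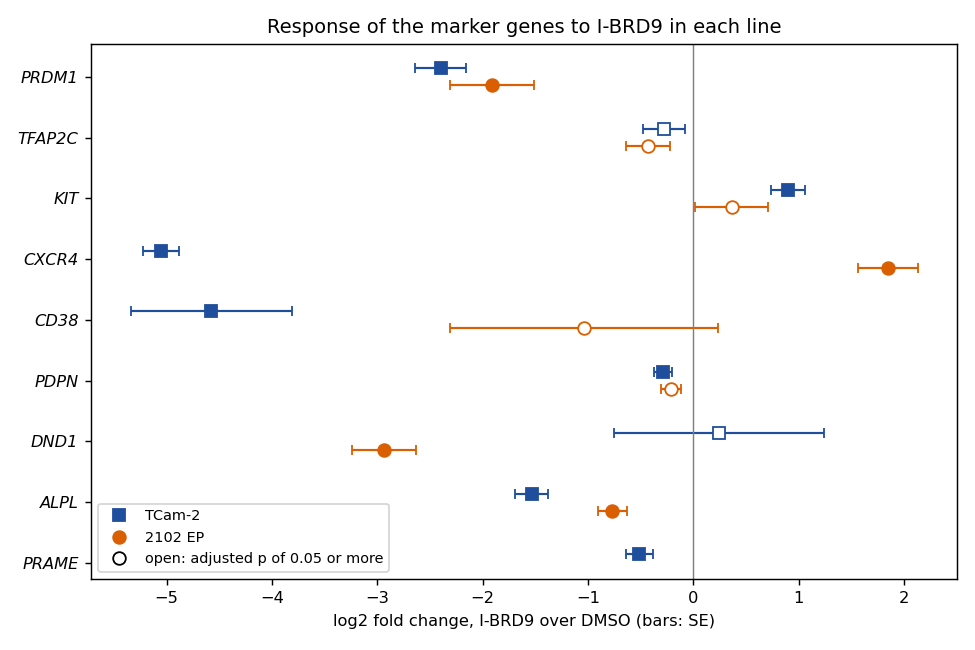
Log2 fold change of I-BRD9 over DMSO on the x axis for each gene on the y axis, TCam-2 as squares and 2102 EP as circles, with SE bars; open symbols have an adjusted p of 0.05 or more. PRAME in 2102 EP is not drawn. CXCR4 lies at -5.05 in TCam-2 and at 1.85 in 2102 EP.

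The test of the difference between the responses called 2 of the 9 genes, CXCR4 and ALPL, both lower in TCam-2, where 13.1% of all genes were called (5.9% higher and 7.19% lower). PRDM1, TFAP2C, KIT and PDPN had intervals of the difference that included 0, and those for PRDM1 and KIT reached -1.47 and 1.32. The difference for CD38 was -3.53 ± 1.48 (95% interval -6.74 to -0.33, adjusted p = 0.187, edgeR) and turned to 0.27 without 2102 EP I-BRD9 replicate 2, the 1 library of its group with counts. With no filter on low counts CD38 was called for this difference (adjusted p = 0.0109, edgeR).

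With DMSO, the seminoma line had more of 7 of the 9 markers than the embryonal carcinoma line and less of DND1 and ALPL. The 9 were called, where 62.6% of all genes tested were (31.7% higher and 30.8% lower), and none of the 9 overlapped between the lines, beside 67.6% of all genes that did not. Their median was 3.13, beside 0.02 over all genes. CD38 and PRAME reached 10 counts in a library only in TCam-2, and DND1 only in 2102 EP. Their calls and lack of overlap here were therefore partly set by the filter on low counts. The counts and the median over the 9 genes are a description. CXCR4 was 103.0-fold higher in TCam-2 (log2 difference 6.69 ± 0.26, adjusted p = 2.51e-18, edgeR), over 31 counts in all in 2102 EP. KIT was 20.5-fold, PRDM1 8.78-fold, TFAP2C 8.31-fold and PDPN 2.94-fold higher. CD38 was 27.9-fold higher, with a log2 difference of 4.8 ± 0.83. With a library left out it ranged from 4.36 to 5.95, the latter without 2102 EP DMSO replicate 3. PRAME held 3929 counts in TCam-2 and 2 in 2102 EP, a ratio of 1888 scaled to depth (95% counting interval 522.3 to 15596, for counting error only). Both 2102 EP counts lay in DMSO replicate 2, and without that library PRAME was at least 832.4-fold higher over a floor of 3 counts for the 2102 EP group.

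DND1 and ALPL ran against the label of the set in these lines. DND1 was lower in TCam-2 (log2 difference -6.91 ± 0.76, adjusted p = 9.01e-12, edgeR), and it rested there on 4 counts in all with DMSO. ALPL averaged 28.5 ± 2.13 CPM in TCam-2 and 52.3 ± 4.01 CPM in 2102 EP with DMSO (log2 difference -0.88 ± 0.14, adjusted p = 7.35e-06, edgeR).

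With I-BRD9, 5 of the 9 were higher and 2 lower in TCam-2, where 62.2% of all genes were called (31.1% higher and 31.1% lower). The lines did not overlap for 7 of the 9, beside 66.3% of all genes. The limit from the filter on low counts given for DMSO holds here too. KIT was 29.7-fold, TFAP2C 9.23-fold, PRDM1 6.26-fold and PDPN 2.79-fold higher in TCam-2. PRAME was at least 919.4-fold higher, over a floor of 3 counts for the 2102 EP group, which had none. CXCR4 differed by -0.21 ± 0.21 (95% interval -0.64 to 0.22, adjusted p = 0.391, edgeR) and CD38 by 1.27 ± 1.23 (95% interval -1.39 to 3.93, adjusted p = 0.345, edgeR). Without 2102 EP I-BRD9 replicate 3 the CXCR4 value was 0.011. The CD38 value was 5.06 and called (adjusted p = 0.0420) without 2102 EP I-BRD9 replicate 2, and -0.090 without TCam-2 I-BRD9 replicate 1. The value of 5.06 stands over a 2102 EP group left with 0 counts, so its size is arbitrary. DND1 was lower in TCam-2 (log2 difference -3.72 ± 0.71, adjusted p = 2.66e-06, edgeR). With a library left out it ranged from -4.32, without TCam-2 I-BRD9 replicate 1, to -3.21. ALPL was 3.12-fold lower in TCam-2. The comparisons between lines and between treatments share libraries and are not independent of each other.

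**Figure D3:**
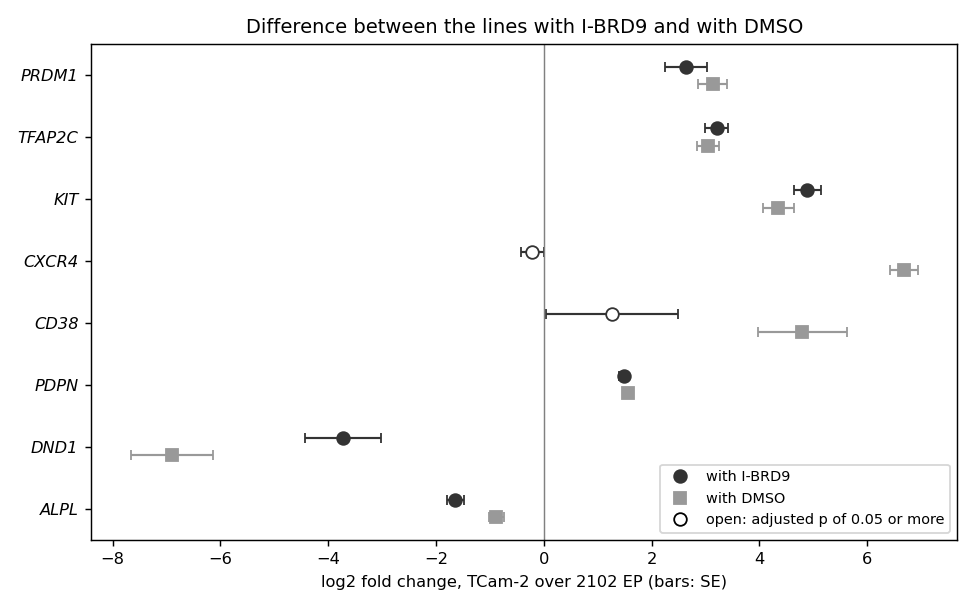
Log2 fold change of TCam-2 over 2102 EP on the x axis for 8 genes on the y axis, with I-BRD9 as dark circles and with DMSO as grey squares, with SE bars; open symbols have an adjusted p of 0.05 or more. PRAME is left out because 2102 EP held at most 2 counts in a group. CXCR4 lies at -0.21 with I-BRD9 and at 6.69 with DMSO.

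Across the 4 groups the genes followed different orders. PRDM1 and PDPN had 4 separate levels, highest in TCam-2 with DMSO and lowest in 2102 EP with I-BRD9. TFAP2C and PRAME had the same order, but the neighbouring treatments of TFAP2C overlapped in each line and those of PRAME overlapped in 2102 EP. KIT was highest in TCam-2 with I-BRD9. CXCR4 and CD38 were highest in TCam-2 with DMSO, and their other 3 groups lay far below. DND1 and ALPL were highest in 2102 EP with DMSO, and ALPL overlapped between 2102 EP with I-BRD9 and TCam-2 with DMSO.

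Genes with the most similar pattern were sought by Pearson r of log2 CPM over the 12 libraries among 9559 candidates, a description in which the libraries fall into 4 groups of replicates and 2 lines. CXCR4 was most like PDE2A (r = 0.984), which averaged 3.70 CPM with I-BRD9 and 21.8 CPM with DMSO in TCam-2, and 4.99 CPM with I-BRD9 and 1.92 CPM with DMSO in 2102 EP. S100A13 (0.983) and APBB2 (0.982) followed. CD38 was most like ASIC2 (0.962), FGF16 (0.941) and PLOD2 (0.939). DND1 was most like DPPA5 (0.988), WNT3 (0.985) and TSC22D3 (0.983), and DPPA5 averaged 7.33 CPM with I-BRD9 and 71.8 CPM with DMSO in 2102 EP.
The nearest genes to PRDM1 were TMBIM1 (0.984), CCT8 and CDCA2, and to KIT they were PCNX2 (0.994), UQCR11 and GPRC5A. GPRC5A averaged 178.9 CPM with I-BRD9 and 81.4 CPM with DMSO in TCam-2. ALPL was nearest to MRPL18 (0.994), ETV4 and CDC25A, and ETV4 averaged 1.17 CPM with I-BRD9 and 27.9 CPM with DMSO in TCam-2. TFAP2C was nearest to SNHG16 (0.994), PDPN to TMEM87B (0.997) and PRAME to YDJC (0.997).

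The wider germ cell and pluripotency program was described from a list of 25 genes, of which 18 were tested. In TCam-2 none was higher and 13 were lower with I-BRD9, with a median of -1.17. In 2102 EP 2 were higher and 11 lower, with a median of -0.96, and 8 genes were lower in both lines. SOX17, the partner of PRDM1 and TFAP2C in germ cell specification, averaged 45.3 ± 3.13 CPM with I-BRD9 and 192.8 ± 6.66 CPM with DMSO in TCam-2, and it fell by 2.09 ± 0.10 (adjusted p = 1.02e-12, edgeR). NANOG averaged 12.8 ± 3.20 CPM with I-BRD9 and 524.5 ± 29.8 CPM with DMSO in TCam-2. UTF1 averaged 0.686 ± 0.322 CPM with I-BRD9 and 31.7 ± 2.80 CPM with DMSO there. PRDM14, which represses somatic genes in mouse germ cells, fell by 2.30 ± 0.15 in 2102 EP and averaged 19.7 ± 1.33 CPM with I-BRD9 and 96.6 ± 21.2 CPM with DMSO. TCL1A and TFCP2L1 were the genes that rose in 2102 EP, and both fell in TCam-2. The test of the difference called 1 of the 18 genes higher and 6 lower in TCam-2, beside 5.9% and 7.19% of all genes. Among the lower were NANOG at -2.17 ± 0.18, TCL1A at -2.27 ± 0.38 and TFCP2L1 at -0.96 ± 0.14. NANOG and POU5F1 have processed copies in the genome and are uncertain to that extent.

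**Figure D4:**
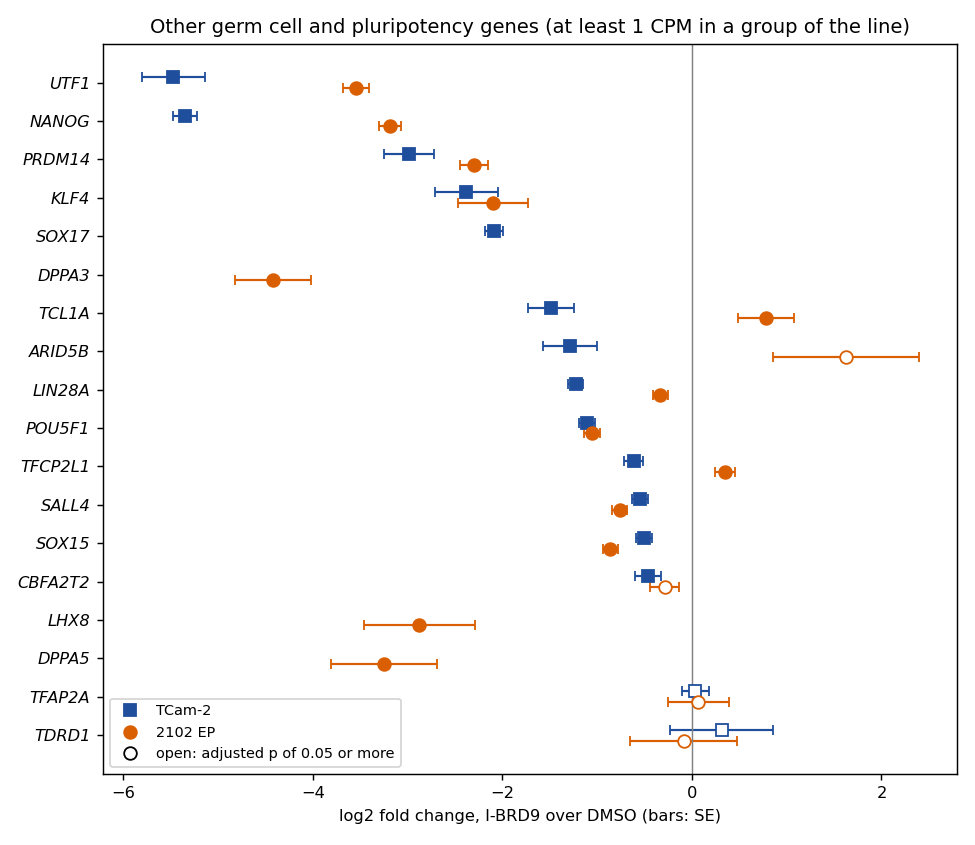
Log2 fold change of I-BRD9 over DMSO on the x axis for 18 other germ cell and pluripotency genes on the y axis, TCam-2 as squares and 2102 EP as circles, with SE bars; open symbols have an adjusted p of 0.05 or more. Values of genes under 1 CPM in both groups of a line are not drawn. UTF1 and NANOG in TCam-2 lie farthest left, at -5.47 and -5.35.

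The library totals ran from 7290335 to 10053366 estimated counts. Mitochondrial transcripts took 6.07% to 7.76% of counts with I-BRD9 and 7.02% to 7.40% with DMSO in TCam-2, and 10.8% to 11.4% with I-BRD9 and 8.21% to 10.1% with DMSO in 2102 EP. BRD9 itself averaged 122.9 ± 6.88 CPM with I-BRD9 and 141.8 ± 3.62 CPM with DMSO in TCam-2, and 92.6 ± 11.2 CPM with I-BRD9 and 111.0 ± 11.7 CPM with DMSO in 2102 EP. SOX17 was at 192.8 CPM in TCam-2 and 0.0774 CPM in 2102 EP with DMSO. Of other germ cell genes with DMSO, LHX8 (0.0393 CPM) and NANOS3 (1.04 CPM) were near 0 in TCam-2, beside 3.41 and 0.163 CPM in 2102 EP. TCL1A was at 11.4 CPM in TCam-2 and 1.94 CPM in 2102 EP with DMSO, and SOX15 at 141.9 and 151.3 CPM. Of 9 embryonal carcinoma markers 6 fell in TCam-2 and 8 in 2102 EP with I-BRD9. Their summed level was 75.05 to 84.3 CPM with I-BRD9 and 152.9 to 158.5 CPM with DMSO in TCam-2, and 466.1 to 507.0 CPM with I-BRD9 and 1915 to 2031 CPM with DMSO in 2102 EP. Of 8 placenta and trophoblast markers 5 were tested, and their summed level was 149.2 to 161.5 CPM with I-BRD9 and 176.5 to 192.1 CPM with DMSO in TCam-2. In 2102 EP it was 40.6 to 44.8 CPM with I-BRD9 and 19.7 to 21.2 CPM with DMSO, with CDX2 at 16.2 CPM with I-BRD9 and 0.283 CPM with DMSO. Of 7 fibroblast and stroma markers 4 were tested, and 2 fell in each line. Their summed level was 89.7 to 136.0 CPM with I-BRD9 and 191.1 to 197.6 CPM with DMSO in TCam-2, and 132.7 to 156.8 CPM with I-BRD9 and 230.3 to 256.8 CPM with DMSO in 2102 EP. THY1 averaged 1.69 CPM with I-BRD9 and 21.4 CPM with DMSO in TCam-2, and 119.0 CPM with I-BRD9 and 220.1 CPM with DMSO in 2102 EP, while COL1A2 averaged 93.0 CPM with I-BRD9 and 150.4 CPM with DMSO in TCam-2. Of 7 markers of testis somatic cells 2 were tested, and the list summed to 27.2 to 30.4 CPM with I-BRD9 and 19.96 to 27.6 CPM with DMSO in TCam-2, and to 22.3 to 32.3 CPM with I-BRD9 and 13.4 to 19.8 CPM with DMSO in 2102 EP. Of these, SOX9 averaged 23.5 CPM with I-BRD9 and 18.0 CPM with DMSO in TCam-2, and 16.4 CPM with I-BRD9 and 8.76 CPM with DMSO in 2102 EP, where it was called higher. AMH averaged 4.59 CPM with I-BRD9 and 5.19 CPM with DMSO in TCam-2, and 8.41 CPM with I-BRD9 and 5.73 CPM with DMSO in 2102 EP, and FSHR had no counts. The 5 endothelial markers summed to 2.20 to 3.00 CPM with I-BRD9 and 6.85 to 7.47 CPM with DMSO in TCam-2, and to 2.12 to 2.90 CPM with I-BRD9 and 4.47 to 5.42 CPM with DMSO in 2102 EP. The 7 blood markers summed to at most 4.50 CPM in any library, with no counts of CD3E and HBB and 41.4 counts of HBA1 over all libraries. The part of these markers in the results was not tested.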

How the data were processed

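RNA of 12 libraries was measured with a Lexogen QuantSeq 3′ kit after RNeasy extraction, per the labels. The authors deposited a table of estimated counts from Salmon 1.9.0, and per the submitters' processing notes Trim Galore, STAR 2.7.11b, R 4.2.0, DESeq2 and GRCh38 were also used. For the order of steps, the annotation and strand use, the sources used here give nothing.

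After rounding, the counts were fitted in edgeR 4.0.16 (R 4.3.3) with TMM, filterByExpr over the 4 groups, and robust glmQLFit and glmQLFTest with 4 group means, which leaves 8 residual degrees of freedom. Benjamini-Hochberg adjustment ran over 15614 genes within each of 5 comparisons. The biological coefficient of variation was 0.127 overall. The ± beside a CPM value is an SD over 3 libraries, and that beside a log2 change an SE. Reads count as shared between genes where an estimated count is off a whole number by over 0.01. The interval of the PRAME ratio and the floor of 3 counts cover counting error only, whereas the intervals of log2 changes come from the model and include the spread between libraries. Gene positions are those of GENCODE 29 (GRCh38), which held 92.1% of the 63241 identifiers. The edgeR fit was tested on simulated counts for I-BRD9 over DMSO in TCam-2 only. The other comparisons and changes of genes near 0 counts were not covered.

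The 9 genes and the lists were chosen with earlier results of these data known, so no list is independent support. From each list, up to 3 genes per comparison with the smallest adjusted p, at least 10 CPM in the higher group and a call were to be named. The text prints part of them. Genes that complete a count of 5 or fewer, ALPG, CRABP1 in TCam-2 and the motifs searched were chosen after their values were seen. Not every gene of similar pattern is printed. A called member of a gene list is not reported here. Alternatives were other scalings, no filter on low counts, DESeq2 1.42.0, limma 3.58.1 (voom), only the libraries compared, blocks for replicate number and for runs of library codes, and leaving out each library.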

Additional observations from a re-analysis of the deposited data

Results flagged for a closer look

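The response to I-BRD9 differed between the lines for 2 of the 9 markers by the interaction term of the edgeR model. For CXCR4 the difference, TCam-2 minus 2102 EP, was -6.90 ± 0.33 (adjusted p = 2.09e-13), with all 3 I-BRD9 libraries below all 3 DMSO libraries in TCam-2 and all 3 above in 2102 EP. For ALPL it was -0.76 ± 0.21 (adjusted p = 0.0146), with all I-BRD9 libraries below all DMSO libraries in each line. The ALPL call was lost without TCam-2 I-BRD9 replicate 2 (-0.63, adjusted p = 0.0563, edgeR). No other marker passed that test, and CD38 and PRAME had too few counts in 1 line for it to be informative. DND1, with few counts in TCam-2, lay near the threshold (3.18 ± 1.04, adjusted p = 0.0514, edgeR), and its call depended on the setting.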

How the results depend on the processing

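Of 891 values of the 9 genes under the alternatives, 872 kept their direction and their side of the threshold, 9 gained a call, 3 lost one and 7 turned sign. The sign turned only for values that had not been called. DND1 in TCam-2 was -0.16 with voom. With a library left out, DND1 in TCam-2 ranged from -0.35 to 0.77 and CD38 in 2102 EP from -4.84 to 0.11. For the difference of effects, CD38 ranged from -4.89 to 0.27 and TFAP2C from -0.11 to 0.31. Between lines with I-BRD9, CXCR4 ranged from -0.38 to 0.011 and CD38 from -0.090 to 5.06, the latter over a group left with 0 counts. The cause was not tested. For the difference of effects, DND1 made 1 marker higher with DESeq2 and with no low-count filter, against 0, and 0 to 1 when a library was left out, where 1 to 2 were lower. CD38 was also called there with no filter (-3.54, adjusted p = 0.0109), which made 3 lower. Between lines with I-BRD9, 1 marker was lower when only those 6 libraries were used, since DND1 was then not tested.

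Same-numbered libraries did not deviate together in every pair (r from -0.119 to 0.160). The r of replicates 1, 2 and 3 were 0.160, 0.034 and 0.127 in TCam-2 and -0.119, 0.096 and -0.079 in 2102 EP. So few small values do not settle whether the numbers pair the samples. With a replicate block 4661 genes were called in TCam-2 and 5487 in 2102 EP, and no call among the 9 genes changed. The same held for a block by runs of library codes. With library size as the only scaling, 59.0% of called genes were higher in TCam-2, against 48.2% with TMM, and the median of all genes moved by less than 0.1. Depth limits CD38, DND1 and PRAME in the line or treatment where they are near 0. In 2102 EP counts were also low for PRDM1 with I-BRD9 (26.1 summed over the group). With DMSO they were low there for KIT (32.0) and CXCR4 (31), so folds over these groups rest on few counts.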
